A study of Mus musculus with 20 samples.

Results

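The genes described here are 40 genes of the response to low oxygen and of glycolysis, taken by their symbols from a deposited table of 38355 genes. All 40 were found, and all 40 were among the 15738 genes that reached at least 0.5 CPM (reads scaled to a common library total) in at least 2 libraries and were tested. They were followed by RNA-seq of polyA RNA in 20 libraries of primary mouse tracheal epithelial cells grown on porous membranes at an air-liquid interface, in which basal cells give rise to secretory and multiciliated cells. The mice were wild type or, by their labels, carried a global knockout of p73, and cells were harvested on days 0, 4, 7 and 14 after the interface was set up. On each day 3 libraries were wild type and 2 labelled knockout, and no other allele, drug or treatment is named for any group. The series text speaks of independent biological replicates, but the labels do not tie a library to an animal or a culture, so p-values measure the spread between these libraries.

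Cells sense oxygen through prolyl hydroxylases, which mark the alpha subunits of hypoxia-inducible factor (HIF) for destruction while oxygen is present. When oxygen is scarce the alpha subunit persists, pairs with Arnt, and switches on genes for glucose uptake, glycolysis, lactate export and pH control, together with genes that restrain mitochondria and attract blood vessels. Tracheal cultures of this kind are grown under medium until the apical medium is taken away, after which the cells face air.

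Depth ran from 3266912 to 31529799 whole reads per library and was lowest in wild type day 4 replicate 3. Replicate 1 of day 4 carries day 3 in its title in both genotypes, but every other label gives day 4, which is used here. Trp73, which encodes p73, was not lower in the libraries labelled knockout at day 0, with 48.7 to 49.2 CPM against 1.07 to 2.70 CPM in wild type, nor at day 4, with 27.5 to 35.1 CPM against 9.83 to 23.3 CPM. The groups overlapped at days 7 and 14. Which bases the knockout removes is not given in the sources used here, so genotypes are compared by their label only. The cultures showed their labelled epithelial identity: summed secretory markers stood at 16370 to 19480 CPM at day 0 and 40560 to 43210 CPM at day 14 in wild type, and multiciliated markers at 22.1 to 31.1 and 4347 to 4803 CPM. Basal markers stood at 2422 to 4436 CPM at day 0 and 1240 to 1686 CPM at day 4, with 5 of 8 called lower. Multiciliated markers had reached 501 to 1607 CPM by day 4, with 9 of 9 called higher, and of 8 secretory markers 2 were called higher. Of 15 proliferation markers 5 were called lower (206 to 638 CPM at day 0 and 166 to 284 CPM at day 4), and of 10 tested squamous markers 4 (626 to 1295 CPM and 449 to 727 CPM). Of 11 leukocyte and erythroid markers 9 stayed under 0.5 CPM in every library, while Lyz2 (8.75 to 7213 CPM) and Itgam (0.113 to 47.4 CPM) did not. Summed over the 11 markers the level was 34.5 to 62.9 CPM at day 0 and 643 to 1160 CPM at day 4 in wild type, and 40.6 to 97.5 and 887 to 7259 CPM in labelled knockout. In wild type, summed fibroblast and smooth muscle markers stood at 56.0 to 109.9 CPM at day 0 and 69.0 to 86.8 CPM at day 4. The part these markers have in the changes below was not tested. No culture kept under medium past day 0 is among the groups, so exposure to air, time in culture and differentiation cannot be told apart, and in bulk RNA fewer cells of a type cannot be told apart from less RNA per cell.

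How did the hypoxia and glycolysis genes stand after day 0? In wild type 31 of the 40 genes fell between day 0 and day 4 and 0 rose, against 13.3% of all tested genes called lower and 13.7% called higher. The members were chosen with earlier results of these data known, so these shares describe the set and are no independent test of it. Their summed level was 17060 to 18650 CPM at day 0 and 5497 to 5924 CPM at day 4. The median log2 difference over the 40 genes was -1.57, where the median over all tested genes was near 0. Calls rest on limma with an adjusted p (FDR, Benjamini-Hochberg over all 15738 tested genes) below 0.05, and differences are on the log2(CPM + 0.5) scale, given ± SE, which understates the change of genes with low levels. In 34 of the 40 genes every wild-type day 0 library lay above all 9 later wild-type libraries, which held for 14.5% of all tested genes. All 31 calls were kept in each of the alternative analyses run and with each library left out.

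**Figure D1:**
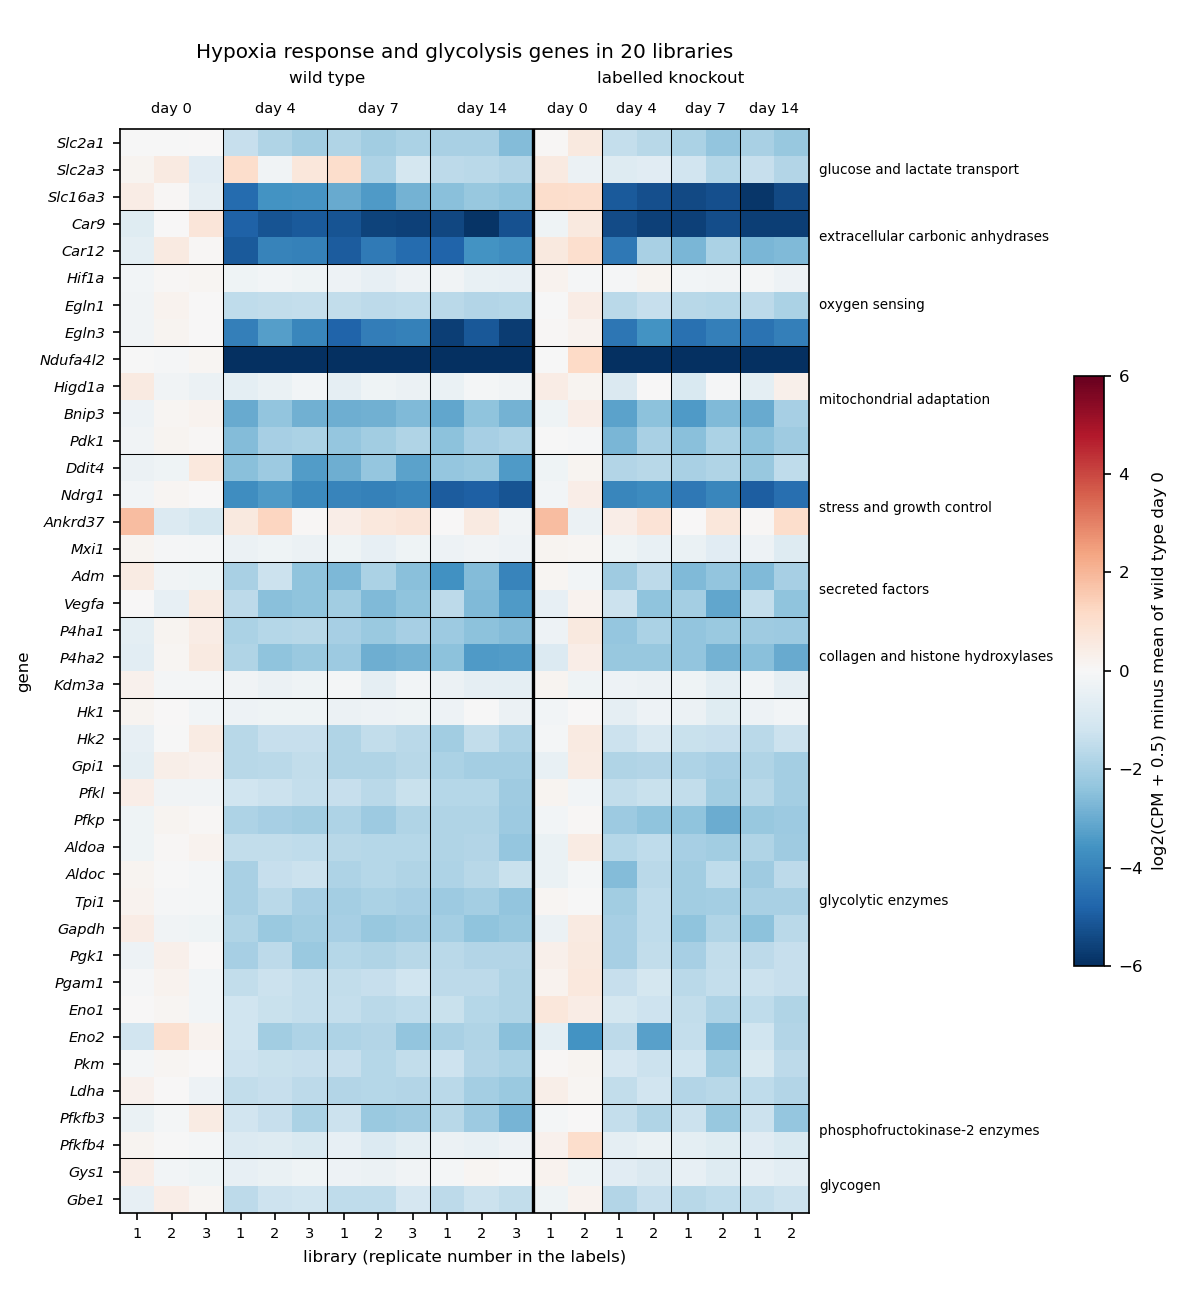
Heat map of log2(CPM + 0.5) minus the wild type day 0 mean for the 40 genes (down, grouped by role) in all 20 libraries (across, by genotype, day and replicate number), with colours limited to -6 and 6. Most genes turn from pale to blue between day 0 and day 4 in both genotypes and stay blue, darkest in Ndufa4l2, while Hif1a, Mxi1, Kdm3a and Hk1 stay pale and Ankrd37 varies among day 0 libraries.

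Oxygen sensing genes differed from each other. Egln3, a prolyl hydroxylase that is itself induced by HIF (ENSMUSG00000035105, chromosome 12, 54178981 to 54203860 in GRCm38), had 939.5, 1224 and 1085 CPM in the wild-type day 0 libraries, 62.4, 108 and 72.0 CPM at day 4, 38.5, 60.9 and 64.6 CPM at day 7 and 20.9, 31.5 and 20.2 CPM at day 14. The day 0 libraries lay far above all others, and those of days 7 and 14 did not overlap. Egln3 fell by 3.77 ± 0.25 by day 4 (FDR 2.88e-08) and stood at -5.48 ± 0.25, FDR 2.26e-10 for day 14 against day 0. Egln1, the hydroxylase that acts on HIF in most cells at normal oxygen, fell from 212, 282 and 252 CPM to 85.7, 89.5 and 90.5 CPM (-1.47 ± 0.14, FDR 7.6e-07). Hif1a, the oxygen-regulated subunit whose protein rather than mRNA is the main point of control, had 164, 196 and 201 CPM at day 0 and 158, 166 and 154 CPM at day 4, groups that overlapped in part (-0.22 ± 0.12, FDR 0.192). By day 14 it had fallen to 142 ± 14.6 CPM (SD, n = 3; -0.39 ± 0.12, FDR 0.0162), but leaving out replicate 3 of wild type day 0, or replicate 2 or 3 of day 14, ended that call (highest FDR 0.0711), as did scaling by library size alone (FDR 0.0604).

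Among the other 12 genes of the HIF pathway on a list made for this comparison, 2 rose and 1 fell by day 4 in wild type. Of all tested genes 13.7% were called higher and 13.3% lower. The counts are near those shares, so the genes are described singly. The 2 that rose were Epas1 and Egln2, another prolyl hydroxylase (0.63 ± 0.21, FDR 0.0322). Epas1, which encodes the HIF-2 alpha subunit, had 886, 1018 and 1208 CPM at day 0, 2969, 3094 and 3506 CPM at day 4 and 2498, 2816 and 2997 CPM at day 14. Its day 4 libraries all lay above those of day 0 (1.63 ± 0.17, FDR 1.79e-06), the opposite direction to the members that fell. Labelled-knockout libraries had 470.2 and 725 CPM at day 0 and 1977 and 2282 CPM at day 4. Hif3a, which encodes another alpha subunit, fell from 41.5, 13.5 and 8.09 CPM to 2.88, 1.78 and 0.299 CPM (-3.23 ± 0.53, FDR 0.00023). Arnt, the partner of the alpha subunits, stood at 104 ± 16.2 and 92.8 ± 7.13 CPM (SD, n = 3; -0.15 ± 0.15, FDR 0.482), and Vhl, which recognises hydroxylated HIF, at -0.22 ± 0.23, FDR 0.528.

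HIF binds DNA at a short core, A or G followed by CGTG, and the promoters of members were read for it. RefSeq promoters (GRCm38.p6) were held for 37 of the 40 genes, not for Ndrg1, Ndufa4l2 and Slc2a3. In the 250 bases before each annotated start, ACGTG on either strand was found in 44.2% of the 52 member promoters, which covered 20 genes, and in 16.6% of all 32851 promoters in the table. Promoters of a gene are counted singly, so overlapping windows of Aldoa count the same match again. Some windows also lie within the gene, as in Vegfa, where the window with a match holds 218 exon bases. The share per gene was not computed for all promoters. GCGTG, which shares its last 4 letters with ACGTG, was found in 48.1% and 28.2%. Member promoters also had a higher median GC content, 61% against 52.4%, and both motifs hold a CG. The windows of 6 genes are given from the base farthest from the start, with ACGTG or its reverse complement CACGT in capitals. They were chosen after the values were seen, and because they hold ACGTG, to show genes of 3 roles that fell in both genotypes (Egln3, P4ha1 and the glycolytic genes Hk2, Pgk1 and Ldha) beside Hif1a, whose RNA was not called at day 4.
Egln3, chr12:54203875-54204124, minus strand: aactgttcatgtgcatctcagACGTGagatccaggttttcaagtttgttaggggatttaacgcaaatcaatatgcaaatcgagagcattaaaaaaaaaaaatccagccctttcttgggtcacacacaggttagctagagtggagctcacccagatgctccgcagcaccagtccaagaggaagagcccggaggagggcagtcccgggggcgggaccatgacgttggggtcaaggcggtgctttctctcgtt
P4ha1, chr10:59323046-59323295, plus strand: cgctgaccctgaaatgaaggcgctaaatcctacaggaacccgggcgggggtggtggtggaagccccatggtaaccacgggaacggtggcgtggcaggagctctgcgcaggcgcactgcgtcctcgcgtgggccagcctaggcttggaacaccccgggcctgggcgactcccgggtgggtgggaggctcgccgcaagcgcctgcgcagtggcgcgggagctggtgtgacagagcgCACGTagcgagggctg
Hk2, chr6:82774455-82774704, minus strand: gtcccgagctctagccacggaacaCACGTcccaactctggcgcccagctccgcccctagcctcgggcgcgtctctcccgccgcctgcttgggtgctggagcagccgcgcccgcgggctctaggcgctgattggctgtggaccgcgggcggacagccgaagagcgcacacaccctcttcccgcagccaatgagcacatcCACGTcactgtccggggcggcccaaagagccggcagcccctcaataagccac
Pgk1, chrX:106186850-106187099, plus strand: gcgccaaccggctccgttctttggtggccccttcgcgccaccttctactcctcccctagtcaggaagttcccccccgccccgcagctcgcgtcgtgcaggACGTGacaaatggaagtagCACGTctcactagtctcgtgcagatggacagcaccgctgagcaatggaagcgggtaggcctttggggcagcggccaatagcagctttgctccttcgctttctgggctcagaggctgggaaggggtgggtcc
Ldha, chr7:46845554-46845803, plus strand: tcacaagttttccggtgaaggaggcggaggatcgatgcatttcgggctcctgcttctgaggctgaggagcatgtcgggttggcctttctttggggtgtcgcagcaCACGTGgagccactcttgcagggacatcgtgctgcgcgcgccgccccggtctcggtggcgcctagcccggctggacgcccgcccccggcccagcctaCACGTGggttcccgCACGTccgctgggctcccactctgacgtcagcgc
Hif1a, chr12:73907617-73907866, plus strand: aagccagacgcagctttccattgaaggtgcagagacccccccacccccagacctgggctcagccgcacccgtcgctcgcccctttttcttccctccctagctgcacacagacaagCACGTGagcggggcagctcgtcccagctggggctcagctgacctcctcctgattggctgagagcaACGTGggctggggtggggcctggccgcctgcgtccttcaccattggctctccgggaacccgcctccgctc
The motif started 229 bases before the start in Egln3 and 16 bases before it in P4ha1, 226 and 52 bases in Hk2, 150 and 131 bases in Pgk1, and 145, 144, 48, 47 and 34 bases in Ldha, where overlapping matches on both strands are counted separately. Hif1a had it at 135, 134 and 70 bases. The second annotated Ldha promoter (chr7:46846832-46847081) had none. ACGTG was also absent from the windows of 17 of the 37 genes, among them Car12, Adm, Pdk1, Tpi1 and Gapdh, which fell too. These are matches of letters and not bound sites.

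Of 4 genes of mitochondrial adaptation 3 fell, and both membrane carbonic anhydrases and 2 of 3 transporters did. Ndufa4l2, a mitochondrial protein made under hypoxia (ENSMUSG00000040280, chromosome 10, 127514967 to 127517154), had 183, 174 and 199 CPM in wild type at day 0 and 0.688, 0.579 and 0.598 CPM at day 4. In wild type it had the lowest log2 difference of all 15738 tested genes at day 4, -7.37 ± 0.30, FDR 3.32e-10. At days 7 and 14 it rested on 1 to 4 reads per wild-type library, so its level there is close to the limit of detection. Bnip3, a receptor that sends mitochondria to autophagy, fell from 206, 282 and 296 CPM to 31.6, 49.7 and 34.4 CPM (-2.75 ± 0.30, FDR 3.21e-06). Pdk1, the kinase that shuts pyruvate dehydrogenase, fell from 291, 369.7 and 345 CPM to 54.6, 84.8 and 88.1 CPM (-2.16 ± 0.24, FDR 4.46e-06), and neither gene's groups overlapped. Higd1a, a protein of the inner mitochondrial membrane, did not pass the test at day 4 or day 14 (-0.39 ± 0.28, FDR 0.34 and -0.23 ± 0.28, FDR 0.545). In the annotation 22.3% of the exon bases of Bnip3 and 22.5% of those of Higd1a lie under an antisense gene, and the library kit did not mark strand. Near-identical stretches of 5 other genes together match 94.2% of the Bnip3 transcript, and 1 of these genes matches most of it, so the level of Bnip3 is uncertain.

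Car9, a membrane carbonic anhydrase that turns carbon dioxide into bicarbonate outside the cell (ENSMUSG00000028463, chromosome 4, 43506966 to 43513729), had 69.0, 114 and 186 CPM at day 0 and 3.44, 2.65 and 2.99 CPM at day 4 in wild type. All later wild-type libraries stayed between 1.42 and 3.44 CPM, and the day 4 difference was -5.02 ± 0.30, FDR 1.37e-08. Car12, a second enzyme of this kind, fell from 66.4, 148 and 106 CPM to 2.62, 5.88 and 5.68 CPM (-4.36 ± 0.49, FDR 5.3e-06). Slc16a3, the lactate exporter MCT4 (ENSMUSG00000025161, chromosome 11, 120948480 to 120960868), had 169, 131 and 85.1 CPM at day 0 and 4.58, 9.98 and 10.2 CPM at day 4, a fall of 3.90 ± 0.27 (FDR 4.58e-08). Slc2a1, the glucose transporter GLUT1, fell from 548, 539 and 568 CPM to 209, 158 and 128 CPM (-1.77 ± 0.21, FDR 8.93e-06). Slc2a3, the transporter GLUT3, was scarce, with 2.11, 2.88 and 0.986 CPM at day 0 and 4.45, 1.54 and 3.29 CPM at day 4 (0.51 ± 0.54, FDR 0.531). It fell at day 14 (-1.64 ± 0.54, FDR 0.0236), but not when replicate 1 or 2 of wild type day 0 or replicate 2 or 3 of day 14 was left out (highest FDR 0.0897).

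**Figure D2:**
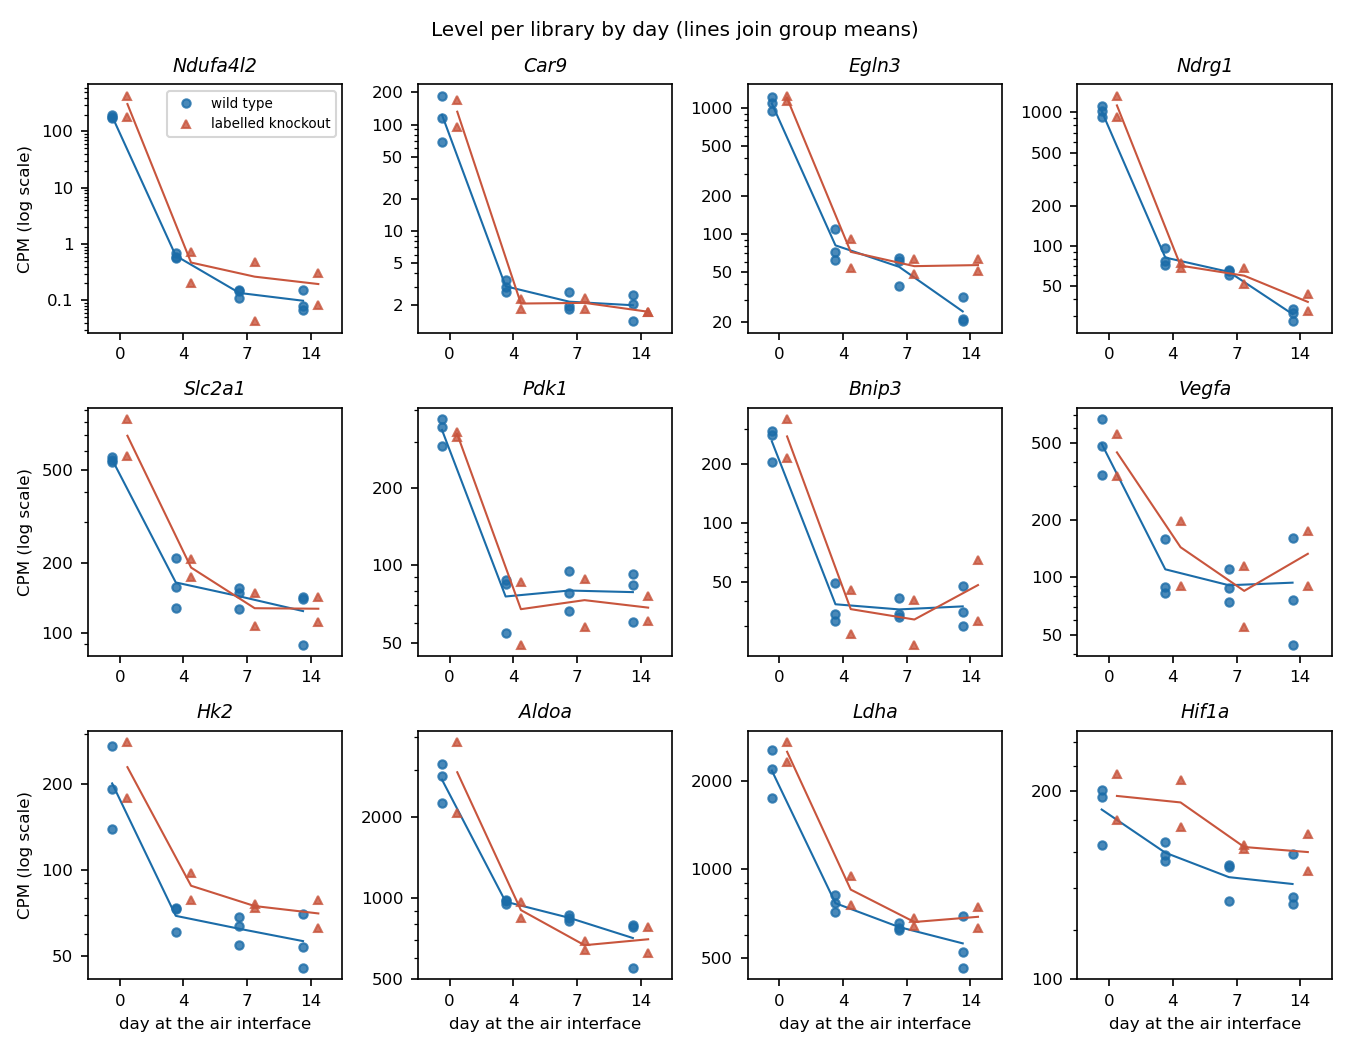
CPM per library on log axes against day (evenly spaced) for 12 genes, with circles for wild type, triangles for labelled knockout and lines through group means. In Ndufa4l2 the day 0 libraries lie between 174 and 430.4 CPM and all later ones under 0.74 CPM, while Hif1a stays between 131.9 and 213 CPM throughout.

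Of 4 stress and growth genes 2 fell by day 4. Ndrg1, a gene long used as a marker of hypoxia (ENSMUSG00000005125, chromosome 15, 66929318 to 66969640), fell from 918, 1119 and 1027 CPM at day 0 to 76.5, 96.2 and 72.3 CPM at day 4 (-3.64 ± 0.17, FDR 6.53e-10) and stood at 31.3, 33.9 and 27.1 CPM at day 14. Ddit4, an inhibitor of mTORC1 signalling, fell from 127, 137 and 256 CPM to 28.8, 35.6 and 15.54 CPM (-2.68 ± 0.36, FDR 3.11e-05). Mxi1, a Myc antagonist, was not called by limma (-0.31 ± 0.13, FDR 0.0823), but was called lower by DESeq2 (FDR 0.0361) and with replicate number as a block (FDR 0.0404). Ankrd37 was not called either (0.65 ± 0.63, FDR 0.493), and its wild-type day 0 libraries held 31.6, 4.40 and 3.78 CPM, with replicate 1 high. Labelled-knockout day 0 libraries, at 31.1 and 6.29 CPM, also had replicate 1 high. Without wild type day 0 replicate 1, Ankrd37 was called higher at day 4 (1.585, FDR 0.0263). In the annotation 22.7% of its exon bases lie under the gene Lrp2bp on the other strand.

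Both secreted factors and 2 of 3 hydroxylases of collagen or histones fell. Vegfa, the growth factor for blood vessels, went from 481, 339.6 and 668 CPM to 159, 82.7 and 89.3 CPM (-2.17 ± 0.45, FDR 0.00155). Adm, which encodes the vasodilator adrenomedullin, went from 205, 127 and 123 to 37.6, 59.4 and 27.2 CPM at day 4 and 11.6, 23.8 and 8.92 CPM at day 14 (-3.40 ± 0.34, FDR 5.89e-07 for day 14 against day 0). P4ha1 and P4ha2, catalytic subunits of the enzyme that hydroxylates prolines in collagen, fell by 1.75 ± 0.24 and 2.14 ± 0.34 (FDR 3.42e-05 and 0.000159). Their day 0 libraries were spread more widely than most, at 171, 290.2 and 348 CPM and 317, 522 and 696 CPM, but lay above every day 4 library. Kdm3a, a histone demethylase induced by hypoxia in other cells, was not called at day 4 (-0.27 ± 0.16, FDR 0.232).

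In wild type, RNA of the enzymes for most steps of glycolysis was lower at day 4 than at day 0. Of the 15 glycolytic enzymes 13 fell, with a median log2 difference of -1.50, and their summed level was 11290 to 11990 CPM at day 0 and 4099 to 4371 CPM at day 4. Aldoa, the aldolase of muscle and most other tissues, fell from 2264, 2858 and 3172 CPM to 975, 989 and 948 CPM (-1.50 ± 0.20, FDR 2.94e-05). For Ldha, a lactate dehydrogenase subunit, the values were 2550, 2192 and 1754 CPM and 769, 816 and 719 CPM (-1.48 ± 0.16, FDR 4.16e-06), and for Pkm, a pyruvate kinase, 2269, 2696 and 2556 CPM and 1065, 1006 and 974 CPM (-1.30 ± 0.22, FDR 0.000321), all without overlap. Log2 differences of the 13 enzymes that fell ranged from -1.29 in Pfkl, a phosphofructokinase of the liver type, to -2.03 in Gapdh. Gapdh, which oxidises glyceraldehyde phosphate, went from 152, 95.5 and 92.2 CPM to 31.7, 23.3 and 25.4 CPM, and Tpi1, triose phosphate isomerase, from 1406, 1134 and 1107 CPM to 314, 399 and 303 CPM (-1.84 ± 0.15, FDR 1.98e-07). Hk2, the inducible hexokinase, fell from 139, 192 and 273 CPM to 61.0, 73.6 and 73.5 CPM (-1.48 ± 0.22, FDR 0.000112), whereas Hk1, the hexokinase most cells hold constantly, went from 345, 316 and 272 CPM to 254, 258 and 260.2 CPM and was not called (-0.26 ± 0.13, FDR 0.149). Eno2, the neuronal enolase, was low and uneven, with 7.65, 33.7 and 19.8 CPM at day 0 (-1.72 ± 0.65, FDR 0.0622). It was not called by limma, but 5 alternatives called it lower: DESeq2 (FDR 0.0140), a pseudocount of 2 (0.0398), the replicate block (0.0486), the compared groups alone (0.0431) and leaving out wild type day 0 replicate 1 (0.0199). In Gapdh, Pgk1, Eno1, Pkm, Ldha and Gpi1, and in Bnip3 among the mitochondrial genes, a near-identical copy, mostly pseudogenes, matches most of the transcript at 95% identity or more (71 such copies for Gapdh), so the authors' counting could have split or dropped reads, and the levels of these 7 genes are uncertain.

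Both enzymes that set the activity of phosphofructokinase fell, and 1 of 2 glycogen enzymes. Pfkfb3, which makes the sugar bisphosphate that drives phosphofructokinase, fell from 97.7, 119 and 184 CPM to 57.8, 49.6 and 34.4 CPM (-1.47 ± 0.35, FDR 0.00511), and its paralog Pfkfb4 by 0.84 ± 0.18 (FDR 0.00252). Gbe1, the glycogen branching enzyme, fell from 58.5, 109 and 91.7 CPM to 27.6, 35.0 and 35.9 CPM (-1.35 ± 0.21, FDR 0.000177), and Gys1, glycogen synthase, was not called (-0.38 ± 0.17, FDR 0.102).

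Paralogs were set side by side per kilobase of exon, counting all annotated exons of a gene. For Hk1 this length was 8532 bases, where its longest coding transcript holds 4278 bases, and for Hk2 5969 and 5513 bases. The size of the day 0 gap between Hk1 and Hk2 therefore depends on the length used. Wild-type Hk2 stood at 33.8 ± 11.2 CPM per kb and Hk1 at 36.5 ± 4.26 CPM per kb at day 0 (SD, n = 3), within the spread of the libraries, while at day 4 Hk2 stood at 11.6 ± 1.22 and Hk1 at 30.2 ± 0.343 CPM per kb. In wild type Ndufa4l2 was above its paralog Ndufa4, a subunit of respiratory complex IV, at day 0 (169 ± 11.5 against 106 ± 44.4 CPM per kb). At day 4 it stood at 0.567 ± 0.0533 against 164 ± 37.4 CPM per kb. The exon lengths used were 1095 bases for Ndufa4l2 and 1381 for Ndufa4, and their day 0 order was not checked with other lengths. Egln3 stood at 407 ± 53.4 CPM per kb at day 0 and Egln1 at 69.2 ± 9.76, and at day 14 Egln3 was the lower with 9.09 ± 2.38 against 21.1 ± 0.924 CPM per kb. Ldha remained above Ldhb, the subunit that favours pyruvate, at 654 ± 120.4 against 16.5 ± 1.69 CPM per kb at day 0 and 169.6 ± 36.3 against 33.7 ± 4.55 CPM per kb at day 14. Ldhb itself rose between these days (1.02 ± 0.28, FDR 0.00766). These values are of wild type. In labelled knockout at day 0 the libraries of Ndufa4l2 (167.4 to 393 CPM per kb) and Ndufa4 (142.3 to 249.5 CPM per kb) overlapped. Near-identical copies were searched for members only, not for Ndufa4 or Ldhb.

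Day 4 already held most of the difference seen at day 14. Between days 7 and 4 in wild type limma, edgeR and DESeq2 called 0 of the 40 genes and 3 passed an unadjusted p under 0.05, with 0.127% of all genes called. Between days 14 and 7 limma and edgeR called 0 members and limma 0% of all genes, and 4 members passed an unadjusted p under 0.05. DESeq2 called 2 of them lower at day 14, Ndrg1 (-1.03, FDR 0.000194) and Egln3 (-1.16, FDR 0.0316), as did limma with replicate number as a block (Ndrg1 -1.04, FDR 0.00878; Egln3 -1.15, FDR 0.0190), and in both genes every day 14 library lay below every day 7 library. Over the whole course, 34 of 40 members were lower at day 14 than at day 0 and 0 higher (median -1.96), against 18.5% of all genes lower and 21.8% higher. Both comparisons share the day 0 libraries. With each library left out, 30 of the 34 day 14 calls held, and those of Slc2a3, Hif1a, Kdm3a and Eno2 did not. For these 34 genes the day 4 difference was a median of 82.6% of the day 14 difference on the log2 scale, and 24 of the 34 had reached at least 75% of it. The share ran from -31.4% in Slc2a3, whose day 4 difference was above 0 and not called, to 162% in Slc16a3. In 6 genes it was over 100%. It was not computed for all tested genes, so early change is not shown to be particular to the members. Wild-type Slc16a3 libraries held 14.5, 11.4 and 17.1 CPM at day 7 and 21.2, 25.3 and 22.4 CPM at day 14, each day above the one before without overlap, although the steps from day 4 to 7 (0.82 ± 0.27, FDR 0.227) and 7 to 14 (0.68 ± 0.27, FDR 1) were not called.

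Members also fell in the libraries labelled knockout. Between days 0 and 4, 33 of 40 members fell and 0 rose (median -1.70), against 10.8% of all genes called lower, and at day 14 32 were lower than at day 0 (median -1.89), against 17.7%. Both later steps had 0 members called by limma, edgeR and DESeq2, with 0.00635% of all genes called between days 7 and 4 and 0% between days 14 and 7, and 2 members passed an unadjusted p under 0.05 in each. Over both genotypes together, all 5 day 0 libraries lay above all 15 later ones in 32 of the 40 genes, against 8.69% of all tested genes. Ndufa4l2 went from 183 and 430.4 CPM to 0.203 and 0.739 CPM at day 4 (-8.24 ± 0.37, FDR 1.46e-09), again the lowest difference of all tested genes. Car9 went from 95.7 and 168 CPM to 2.3 and 1.87 CPM (-5.63 ± 0.37, FDR 5.11e-08), Egln3 from 1138 and 1248 CPM to 53.3 and 90.5 CPM (-4.09 ± 0.31, FDR 2.42e-07) and Ldha from 2702 and 2313 CPM to 758 and 950.5 CPM (-1.56 ± 0.20, FDR 3.47e-05). Hif1a held 213 and 180.2 CPM at day 0 and 176 and 208 CPM at day 4 (-0.03 ± 0.15, FDR 0.913). Slc2a3, Hif1a, Higd1a, Ankrd37, Kdm3a, Hk1 and Eno2 were not called at day 4, all of them also not called in wild type. Marker levels moved over the same days: from day 0 to day 4 the summed basal markers were 5283 to 8356 and 2183 to 2284 CPM, and proliferation markers 482 to 1479 and 235 to 322 CPM. Secretory markers were 7249 to 7670 and 27090 to 50110 CPM and multiciliated markers 26.4 to 26.9 and 857 to 889 CPM. Squamous markers, at 4935 to 8438 CPM at day 0 and 5311 to 7030 CPM at day 4, lay above the wild-type libraries of both days. The part of these markers in the members' changes was not tested. Of the 33 calls at day 4, 27 held with each library left out, and those of Ddit4, Mxi1, Adm, Vegfa, Pfkfb3 and Gys1 did not.

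**Figure D3:**
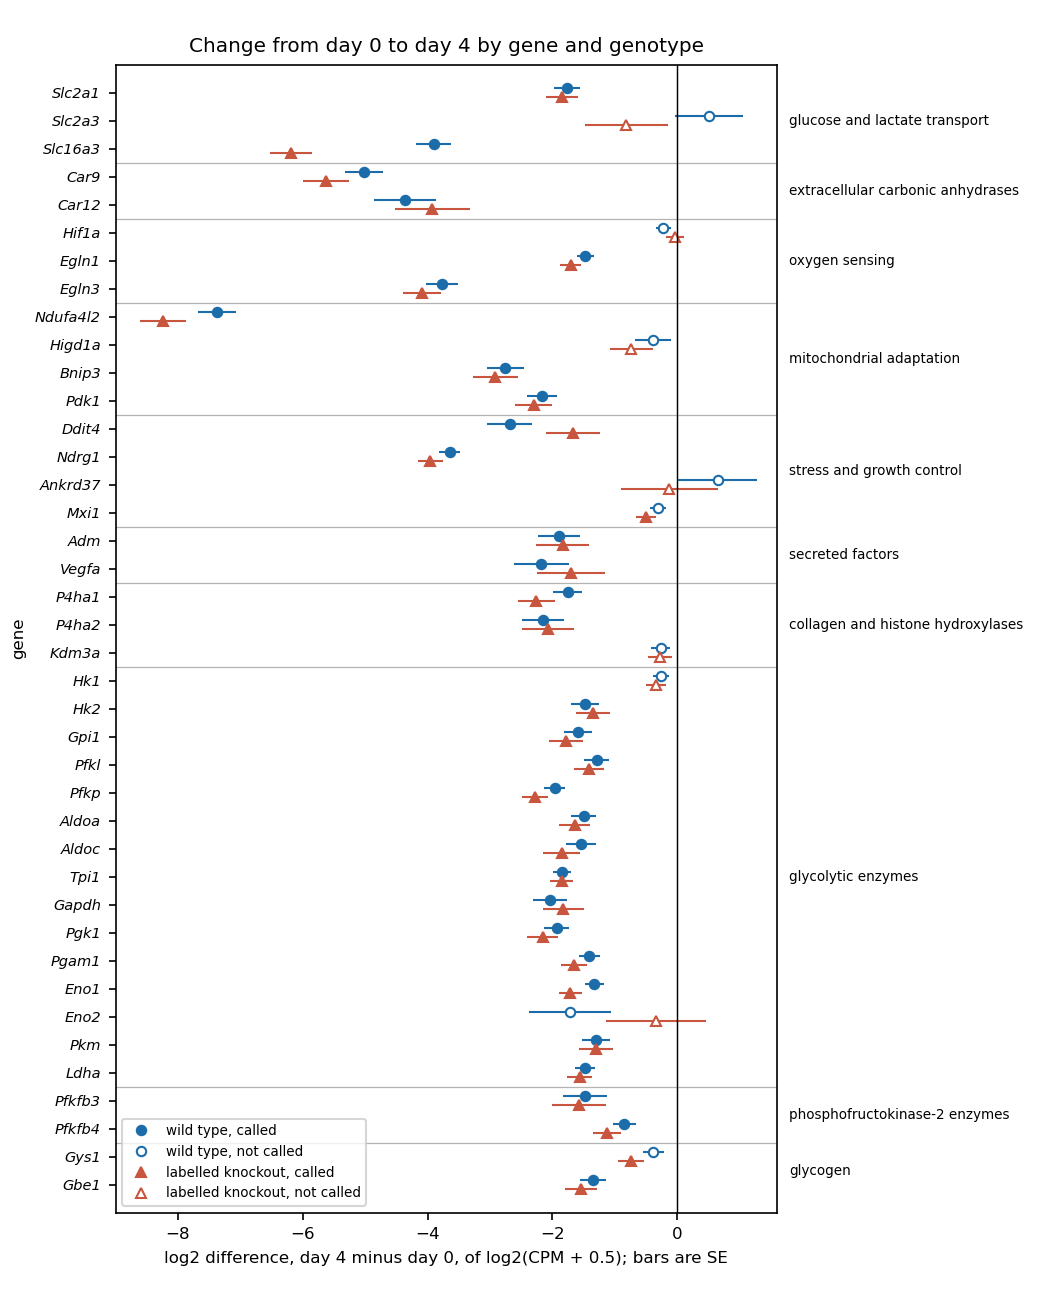
Log2 difference from day 0 to day 4 with SE for each of the 40 genes, in wild type (circles) and labelled knockout (triangles), filled where the gene was called. Points of both genotypes lie left of 0 for most genes, with Ndufa4l2 at -7.37 and -8.24 farthest from 0 and Hif1a close to it.

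Later labelled-knockout libraries stayed low. At day 14 Ndufa4l2 had 0.0830 and 0.308 CPM, resting on 2 and 6 reads, Car9 1.74 and 1.745 CPM and Ndrg1 32.3 and 43.7 CPM. Bnip3 had 214 and 339 CPM at day 0 and 31.7 and 64.9 CPM at day 14 (-2.56 ± 0.36, FDR 4.91e-05), and Slc2a1 572 and 822 CPM at day 0 and 142 and 112 CPM at day 14 (-2.44 ± 0.26, FDR 2.73e-06), with no later library reaching a day 0 level. Among glycolytic enzymes Aldoa stood at 2081 and 3812 CPM at day 0 and 783 and 624 CPM at day 14 (-2.01 ± 0.24, FDR 1.04e-05). For the 32 genes called lower at day 14 the day 4 difference was a median of 92.1% of that at day 14 (72.3% to 116%), and 31 of them had reached at least 75%. Here too the share was not computed for all tested genes. At day 14 the calls of Mxi1, Vegfa and Pfkfb3 were lost when a library was left out.

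Did the label of the mice alter these genes? At day 0 limma and edgeR called 0 of the 40 members between genotypes, 5 passed an unadjusted p under 0.05, DESeq2 called Pfkfb4 (0.69, FDR 0.0411), and 2.20% of all genes were called. With replicate number as a block Eno1 was called higher in labelled knockout (0.505, FDR 0.0392). At day 4 limma and edgeR called 0 and DESeq2 called Slc16a3 (-1.43, FDR 0.00322), as limma did without the libraries titled day 3 (-1.74, FDR 0.0118). There 3 passed an unadjusted p under 0.05, and 1.15% of all genes were called. At day 7, 3 members were called, against 1.64% of all genes, and at day 14, 2 members, against 4.21%. The change from day 0 to day 4 differed between genotypes in 0 members by limma and edgeR and in 1 (Slc16a3) by DESeq2, with 1 at an unadjusted p under 0.05 and 0.0191% of all genes called. For day 14 against day 0 limma and edgeR called 1, Slc16a3, with 1.00% of all genes called by limma. DESeq2 also called Pfkfb4 (-1.14, FDR 0.0301), and without labelled-knockout day 0 replicate 1 limma called Pfkfb4 (-1.50, FDR 0.0115) and Eno2 (4.19, FDR 0.0435) as well. These background shares moved too: all genes called numbered 347 at day 0 (8 with the compared groups alone, 577 with DESeq2), 181 at day 4 (44 without labelled-knockout replicate 2, 362 with DESeq2), 258 at day 7 (36 without labelled-knockout replicate 2, 524 with DESeq2) and 663 at day 14 (253 without labelled-knockout replicate 1, 864 with DESeq2). Those for a genotype difference in change numbered 3 at day 4 (0 with the compared groups alone, 21 without wild-type day 4 replicate 1) and 158 at day 14 (30 with edgeR, 313 with the replicate block). An uncalled difference does not show that the genotypes acted alike: for Ldha at day 4 the difference was 0.15 ± 0.18.

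Slc16a3 was the member called between genotypes on both later days. Its labelled-knockout libraries held 257 and 252 CPM at day 0, above all wild-type libraries (1.04 ± 0.31, FDR 0.102), and 3.31 and 2.68 CPM at day 4, below all of them (-1.25 ± 0.31, FDR 0.0625). At day 7 they held 2.38 and 2.73 CPM and at day 14 1.70 and 2.36 CPM, where wild type had 21.2, 25.3 and 22.4 CPM. The difference between genotypes was -2.26 ± 0.31, FDR 0.00144 at day 7 and -3.22 ± 0.31, FDR 3.14e-05 at day 14. Its fall from day 0 to day 14 was larger in labelled knockout than in wild type by 4.26 ± 0.43 (FDR 0.000405), a call kept in each alternative run. At day 14 the summed multiciliated markers were 4347 to 4803 CPM in wild type and 1878 to 2060 CPM in labelled knockout, and squamous markers 353 to 477 and 1581 to 1612 CPM. Their part in the difference was not tested. In the authors' deposited table the log2 fold changes of Slc16a3 are 0.9, -1.32, -2.36 and -3.34 at days 0, 4, 7 and 14, with adjusted p of 0.142, 0.0611, 1.49e-14 and 2.45e-32.

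Car12 and Egln3 went the other way. Car12 held 14.8 and 27.3 CPM at day 7 in labelled knockout and 2.70, 4.87 and 3.69 CPM in wild type (2.31 ± 0.55, FDR 0.0453). Leaving out any 1 of the 5 day 7 libraries ended that call (highest FDR 0.414). At day 14 it held 14.98 and 15.9 CPM against 3.17, 7.91 and 7.32 CPM, and was called with replicate number as a block (1.45, FDR 0.0230) but not without it (1.36 ± 0.55, FDR 0.267). Egln3 held 50.2 and 62.6 CPM against 20.9, 31.5 and 20.2 CPM at day 14 (1.23 ± 0.28, FDR 0.018). The call ended when wild-type replicate 1 or 3 or either labelled-knockout replicate of day 14 was left out (highest FDR 0.212), and its change from day 0 differed between genotypes only with replicate as a block (1.08, FDR 0.0354; 1.08 ± 0.40, FDR 0.294 without it). Pfkp, the platelet-type phosphofructokinase, held 44.7 and 30.2 CPM against 67.8, 53.0 and 70.2 CPM at day 7 (-0.77 ± 0.19), with an FDR just under 0.05. It was lost under 11 of 14 alternatives, among them edgeR (FDR 0.0620), replicate number as a block (FDR 0.0501), other scalings, other pseudocounts, no filter and the compared groups alone (FDR 0.120), and when wild-type replicate 1 or 3 or labelled-knockout replicate 2 of that day was left out (highest FDR 0.601). In the authors' deposited table Car12 has a log2 fold change of 2.36 at day 7 (adjusted p 1e-09), Egln3 1.23 at day 14 (5.99e-05) and Pfkp -0.72 at day 7 (0.0391). That table holds 4 members with an adjusted p under 0.05 at day 7 and 3 at day 14, against 3 and 2 in limma. The others are Ddit4 at day 7 (0.91, adjusted p 0.0237 in the authors' deposited table, and 0.96 ± 0.40, FDR 0.392 in limma) and Car12 at day 14 (1.29, adjusted p 0.00692 in the authors' deposited table).

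**Figure D4:**
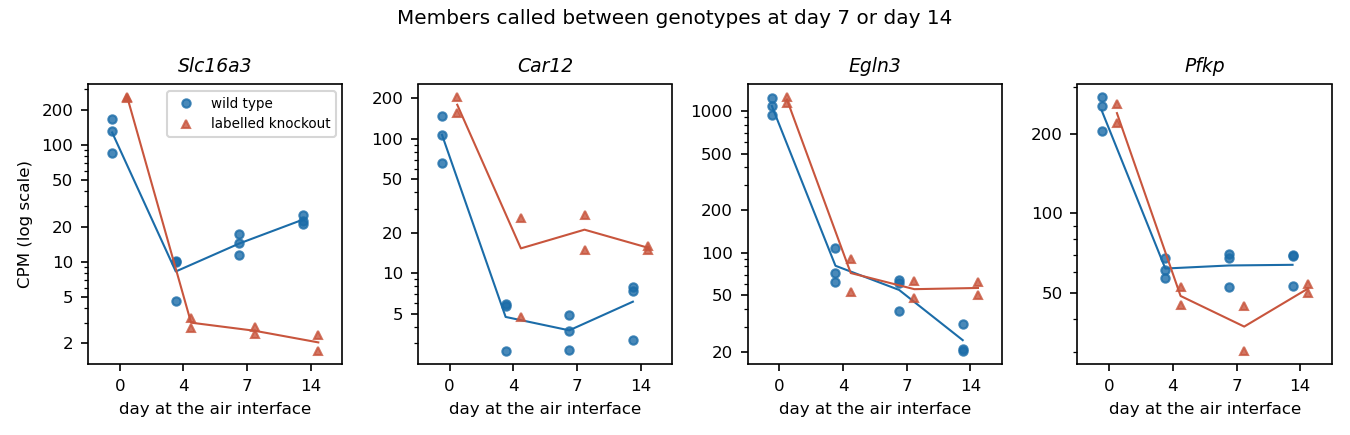
CPM per library on log axes against day (evenly spaced) for the 4 genes called between genotypes at day 7 or 14, with circles for wild type, triangles for labelled knockout and lines through group means. Slc16a3 lies at 4.58 to 10.2 CPM at day 4 and 21.2 to 25.3 CPM at day 14 in wild type and stays under 3.32 CPM after day 0 in labelled knockout.

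Libraries of the same replicate number were ordered alike in some members after day 0. In 6 of the 40 genes, Vegfa, P4ha2, Kdm3a, Eno1, Pkm and Pfkfb3, replicate 1 was above replicate 2 in all 6 groups of genotype and later day, which held for 17.9% of all tested genes. In 10, among them Bnip3, Pdk1, Ddit4, Aldoc, Tpi1 and Car12, replicate 2 was above replicate 1 in all 6, against 14.0% of all tested genes. Vegfa is an example, with 161, 76.4 and 44.7 CPM in wild type and 176 and 90.1 CPM in labelled knockout at day 14, in order of replicate number. Bnip3 had 29.7, 47.9 and 35.3 CPM and 31.7 and 64.9 CPM. What the number stands for is not given in the labels.

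Genes of the same or neighbouring pathways outside the 40 were counted on lists in wild type at day 4 against day 0, where 13.3% of all genes were lower and 13.7% higher. The lists too were chosen with earlier results of these data known. Of 30 other genes induced by hypoxia 18 fell and 1 rose (median -1.15), with Ero1l, an oxidase of the endoplasmic reticulum, going from 1765 ± 737 to 96.8 ± 14.03 CPM (-4.09 ± 0.36, FDR 4.03e-07). The matrix crosslinking oxidases Loxl2 and Lox stood at -4.48 and -3.23, and the 1 that rose was the transferrin receptor Tfrc (1.18 ± 0.25, FDR 0.00181). Of 22 tested genes of glycolysis and pyruvate use outside the 40, mostly other isozymes, 6 rose and 3 fell (median 0.18). The glucose transporters Slc2a12 and Slc2a4 went opposite ways (1.84 ± 0.28, FDR 1e-04; -2.43 ± 0.26, FDR 3.2e-06).

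Lists of pathways that use glucose or pyruvate elsewhere gave other counts. In the pentose phosphate pathway 3 of 7 genes rose and 1 fell (median 0.14), with G6pdx, its first enzyme, going from 237 ± 19.97 to 465 ± 32.1 CPM (0.97 ± 0.12, FDR 1.18e-05) and Tkt, transketolase, at -0.54 ± 0.12, FDR 0.00346. Of 17 citric acid cycle genes 4 rose and 0 fell (median 0.20), among them Dlst (0.60 ± 0.11, FDR 0.000421). Of 36 complex I subunit genes 2 rose and 1 fell (median 0.16), and of 35 tested subunit genes of complexes III, IV and V 1 rose and 0 fell (median 0.02). Among 12 other genes of gluconeogenesis and glycogen 1 rose and 3 fell (median -0.08). Of 14 genes often used as references in quantitative PCR 4 fell by day 4, Gapdh and Pgk1, which are members, and Actb (-1.73 ± 0.22, FDR 1.68e-05) and B2m (-0.94 ± 0.20, FDR 0.00195). By library size alone, without TMM, 62.7% rather than 50.7% of called genes were higher in this comparison, and no member's call changed direction.

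**Figure D5:**
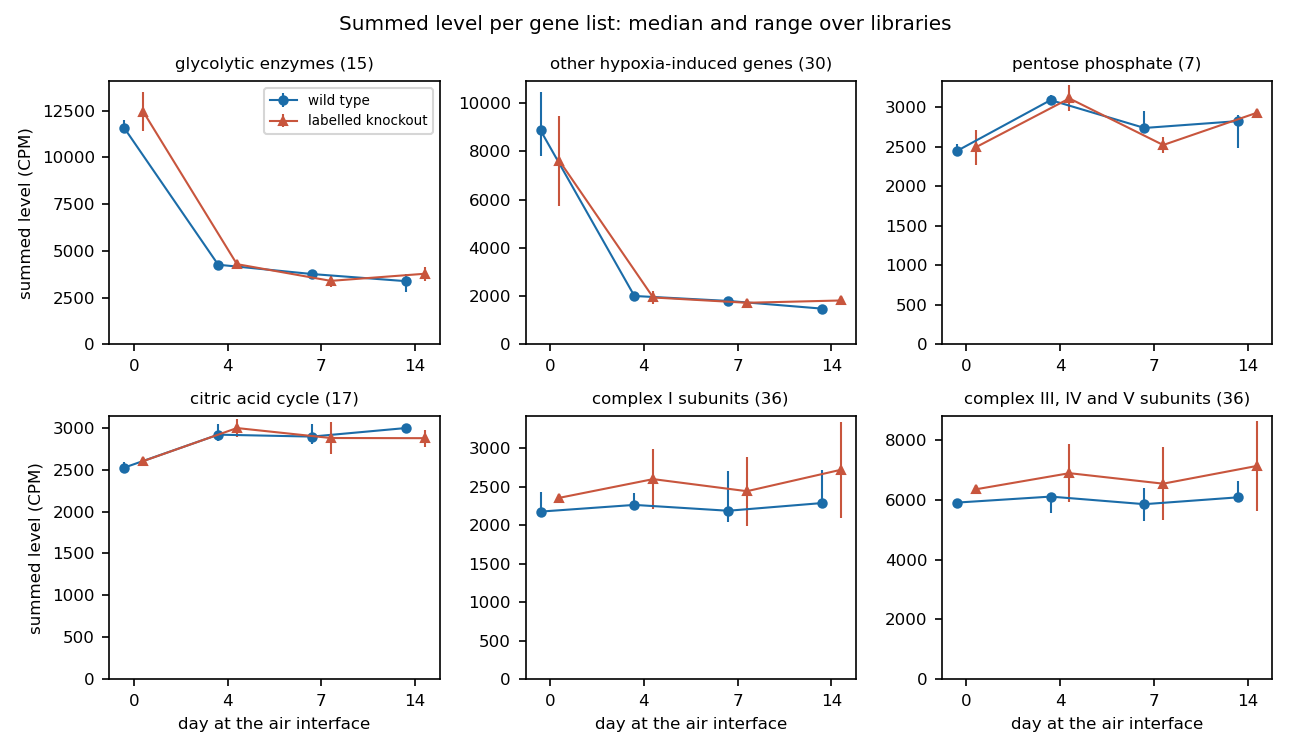
Summed CPM of 6 gene lists against day (evenly spaced), as the median with the range over libraries, for wild type (circles, n = 3) and labelled knockout (triangles, n = 2), with the number of genes in brackets. The glycolytic enzymes go from a median of 11560 to 4255 CPM in wild type by day 4 and the other hypoxia-induced genes from 8872 to 2003 CPM, while citric acid cycle genes go from 2525 to 2918 CPM.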

How the data were processed

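PolyA RNA was sequenced in 20 libraries. The authors' deposited signal per gene is, per the file headers, a normalized read count. The submitters' processing notes name STAR 2.3.0e, DESeq2 1.4.5 and build mm10; no counting tool, annotation or strand setting is given in the sources used here. Dividing each library's values by 1 step gave whole reads, to within 0.1 reads, for 100% of them. On these reads edgeR called 4079 genes in wild type day 4 against day 0, where limma called 4244. The deposited log2 fold changes and adjusted p-values of the authors were copied for members only.

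Because the deposited values were scaled, limma 3.58.1 (R 4.3.3) was the test and edgeR, meant for raw counts, an alternative. Reads were scaled by TMM (edgeR 4.0.16) over all libraries to CPM and filtered at 0.5 CPM in 2 libraries. Then log2(CPM + 0.5) was fitted with 1 mean for each of 8 groups and moderated variances (trend, robust). All tests are two-sided. The fit was checked on simulated data for wild type days 4 and 14 against day 0. There the shallow day 4 library added false calls, mostly in genes with low levels, so only a loose bound was set. The percents of all genes called at day 4 may hold such calls. DESeq2 1.42.0 and edgeR on reads, other scalings, pseudocounts and filters, a replicate block, fits of the compared groups alone, and fits without each library were alternatives. In fits without a labelled-knockout library the remaining one is assumed to vary like other groups. Same-numbered libraries of the 2 genotypes deviated from their group means together at each day (r 0.274 to 0.599 in 8 pairs over 11064 genes), as did those of wild type days 4, 7 and 14 (0.330 to 0.669), so a blocked value is given where it changes such a call. Across other days not all pairs did (lowest -0.0836), and 2 labelled-knockout libraries make only 2 pairs. Medians, percents of all genes called and counts describe lists, with no list test.

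Exon lengths, positions and overlaps are from GENCODE vM21 (GRCm38), copies from blastn 2.17.0 (95% identity, at least 50 bases), promoters from RefSeq. All 40 members are named by rule, with up to 4 called genes of each other list. The members and lists were chosen with earlier results of these data known.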

Additional observations from a re-analysis of the deposited data

Results flagged for a closer look

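The change of Slc16a3, the lactate exporter, between day 0 and day 14 differed between genotypes by -4.26 ± 0.43 on the log2 scale (limma, FDR 0.000405), being -2.40 ± 0.27 in wild type and -6.67 ± 0.34 in labelled knockout. Every day 14 library of both genotypes lay below the day 0 libraries, and 2 of 2 labelled-knockout libraries of day 14 lay below all 3 of wild type. The size of the difference between genotypes, tested directly, drew attention to it. Groups of 2 or 3 libraries are too small for a check of single outlying libraries.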

How the results depend on the processing

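Of 8473 values of single members under alternatives, 0 changed the direction of a called difference, 7852 kept their direction and call, 70 lost and 39 gained the call, and 512 uncalled values changed sign. The counts of members called in wild type day 4 against day 0 (31 to 33), wild type day 14 against day 0 (30 to 35) and labelled knockout day 4 (28 to 33) and day 14 (29 to 34) against day 0 stayed within these ranges over all alternatives. Wild type day 14 against day 7 went from 0 to 1 with a pseudocount of 2 or the compared groups alone, and to 2 with DESeq2 or the replicate block. The genotype comparison gave 1 at day 0 with DESeq2 or the replicate block and 0 to 2 with 1 library left out, and 1 at day 4 with a pseudocount of 0.1, DESeq2 or the libraries titled day 3 left out and 0 to 1 with 1 library left out. At day 7 it gave 1 with DESeq2 size factors, a pseudocount of 2 or no filter, and 1 to 2 with 1 library left out; at day 14, 1 to 3 with 1 library left out. Genotype differences in change gave 1 at day 4 with DESeq2 or the libraries titled day 3 left out (0 to 1 with 1 library left out), and at day 14 2 with DESeq2 or the replicate block (1 to 3). The cause of these moves was not tested. Over days the replicate block gave 33 (wild type day 4), 34 (day 14), 33 and 34 (labelled knockout day 4 and day 14) members against day 0, and it changed no other count by over 1.5 times.

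Without TMM, calls of higher genes made up 65.5% against 55% for wild type day 7 against day 4, 56.3% against 46.1% for labelled knockout day 4 and 58.3% against 44.8% for its day 14 against day 0, where the median of all genes moved from -0.02 to 0.13. All genes called in wild type day 7 against day 4 numbered 20 in limma, 1 in edgeR and 137 in DESeq2. In the shallowest library, of 3266912 reads, Car9 rested on 10 reads and Ndufa4l2 on 2.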
